A study of Mus musculus with 19 samples.

Results

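Triglyceride synthesis and glycerol supply were followed through 9 mouse genes, a list of the pathway given by symbol: the glycerol channel *Aqp7*, the enzymes that make glycerol 3-phosphate (*Gk* and *Gpd1*), and the enzymes that build the lipid on it (*Gpam*, *Agpat2*, *Lpin1*, *Mogat1*, *Dgat1* and *Dgat2*). Each symbol matched 1 gene in each of 3 expression tables, so the list is 9 of 55573 genes in a table of 7 tissues, 9 of 55487 in a table of brown adipose tissue (BAT) and 9 of 13756 in a table of inguinal white adipose tissue (iWAT).

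The study followed Musclin, a peptide secreted by muscle and encoded by *Ostn*, and its action on fat. The 12 adipose libraries came from male, chow-fed mice aged 5 months that had spent 1 week at 8 °C, with 3 WT and 3 MCK-Musclin libraries of BAT and the same number of iWAT. MCK-Musclin mice carry the full-length coding sequence of Musclin behind the promoter of muscle creatine kinase (MCK), which is active in muscle, on a background backcrossed to C57BL/6J. Several founder lines were made, and which line gave these libraries is not given in the sources used here. The 7 tissues (brown and white adipose tissue, liver, small intestine, heart, brain and tibialis anterior muscle) came from C57BL/6J WT mice with no treatment named in the labels, 1 library each, and the white depot is not named there. Values are FPKM, which divide the fragments of a gene by its exon length and by library size, so genes can be compared per length. The 9 genes and the other lists below were chosen with earlier results of these data known.

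Most triglyceride in mammals is made by adding fatty acyl chains, step by step, to glycerol 3-phosphate. That backbone comes from glycolysis through glycerol 3-phosphate dehydrogenase or, where glycerol kinase is present, from glycerol itself, which enters and leaves cells through aquaglyceroporins. The chains are added by glycerol-phosphate acyltransferases and then by acylglycerol-phosphate acyltransferases. A lipin removes the phosphate and a diacylglycerol acyltransferase adds the last chain, while a side route starts from monoacylglycerol and is best known from the absorbing intestine. White fat stores the product. Brown and beige fat burn it during cold exposure and remake it at the same time.

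FPKM summed to between 364710 and 720852 per adipose library and to between 393682 and 711437 per tissue library, and read totals were not part of the values used here. *Ostn* was listed at 0 in all 3 WT BAT libraries and at 37.9, 31.6 and 30.3 FPKM in the MCK-Musclin ones. In iWAT *Ostn* was listed at 0, 0 and 0.225 in WT and at 0, 5.17 and 4.21 in MCK-Musclin mice. The summed FPKM of 10 fast muscle markers in these libraries was 9.01, 575 and 2953 in WT and 8.03, 107 and 119 in MCK-Musclin mice. Since the promoter is one of muscle, the 0 of MCK-Musclin library 1, with the lowest sum, does not check its genotype. *Ostn* was higher in MCK-Musclin libraries 2 and 3 than in any WT library. The labelled tissues had their own markers: the summed FPKM of 12 adipocyte markers was 15874 in white and 7501 in brown adipose tissue, that of 10 fast muscle markers 88264 in tibialis anterior muscle, that of 7 hepatocyte markers 37534 in liver, and *Ucp1*, the uncoupling protein of brown and beige fat, was at 467 in brown adipose tissue and listed at 0 in white.

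The 9 genes had their largest summed FPKM in the 2 fat depots among the 7 tissues, 2121 in brown and 983 in white adipose tissue, against 431 in liver, 429 in small intestine, 333 in tibialis anterior muscle, 199 in heart and 62.8 in brain. The sum is mostly *Gpd1* and *Dgat2*, and single genes were ordered in other ways. *Gk*, *Agpat2* and *Dgat1* were highest outside fat. With 1 library per tissue these levels have no replicate check and no test.

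*Aqp7*, the channel through which fat cells release and take up glycerol (ENSMUSG00000028427, chromosome 4 of GRCm38 from 41033074 to 41048139, minus strand), was at 42.3 FPKM in brown and 33.1 in white adipose tissue. It was at 2.90 in heart, 2.22 in small intestine and 0.840 in tibialis anterior muscle, and it was listed at 0 in liver and brain. *Aqp9*, the glycerol channel of hepatocytes, was at 73.4 FPKM in liver, which held 98.3% of its summed FPKM over the 7 tissues. The skin and kidney channel *Aqp3* was at 6.69 in small intestine and at most 0.346 in the other tissues.

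*Gk*, glycerol kinase (ENSMUSG00000025059, chromosome X from 85701937 to 85776819, minus strand), was highest in small intestine at 23.0 FPKM, followed by liver at 16.9, brown adipose tissue at 12.3, heart at 8.39 and brain at 5.57. White adipose tissue had 2.05 and tibialis anterior muscle 0.065. Brown and white fat, close for *Aqp7*, were thus 12.3 and 2.05 for the kinase that acts on glycerol once it is in the cell.

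*Gpd1*, the cytosolic glycerol 3-phosphate dehydrogenase that makes the backbone from a glycolytic intermediate (ENSMUSG00000023019, chromosome 15 from 99717515 to 99725005, plus strand), reached 1403 FPKM in brown adipose tissue, the highest value of any of the 9 genes in a tissue. White adipose tissue had 288, tibialis anterior muscle 245, small intestine 218, liver 120, brain 26.6 and heart 26.2. The antisense gene *Gm16537*, which overlaps its exons, had at most 1.53 FPKM in the 7 tissues and 1.89 in BAT. Brown fat was 4.88 times the next tissue, or 2.88 times when libraries were rescaled to the same sum, and held 60.3% of the summed FPKM. The mitochondrial partner of *Gpd1* in the glycerol phosphate shuttle, *Gpd2*, was also highest there, at 87.7 against 7.98 in white fat. *Pck1*, phosphoenolpyruvate carboxykinase and a source of the backbone in fasting fat, was at 920 in brown adipose tissue, 604 in liver and 510 in white adipose tissue. With libraries rescaled to the same sum, *Pck1* was at 1293 in brown adipose tissue, 1082 in liver and 1215 in white adipose tissue, so white fat passed liver. *Gk* as a share of the summed FPKM of *Gk* and *Gpd1*, the enzymes of both routes to glycerol 3-phosphate, was 24.3% in heart, 17.3% in brain, 12.4% in liver and 9.56% in small intestine. In brown fat it was 0.868%, in white fat 0.708% and in tibialis anterior muscle 0.0267%.

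Among the enzymes of the chain, *Gpam*, the mitochondrial acyltransferase that adds the first chain (ENSMUSG00000024978, chromosome 19 from 55067268 to 55127238, minus strand), was at 89.6 FPKM in white adipose tissue, 50.3 in liver, 42.7 in heart, 31.3 in brown adipose tissue, 25.2 in tibialis anterior muscle, and only at 9.97 in brain and 2.099 in small intestine. *Lpin1*, the lipin that turns phosphatidate into diacylglycerol (ENSMUSG00000020593, chromosome 12 from 16535669 to 16610966, minus strand), was at 106 in white and 97.5 in brown adipose tissue, 59.8 in liver, 52.9 in tibialis anterior muscle, 35.8 in heart, and only at 7.64 in brain and 2.37 in small intestine. These 2 genes had the most alike profiles of any pair of the 9, with a Pearson correlation of 0.93 over the 7 tissues on the log2(FPKM + 1) scale. Small intestine, lowest of the 7 for both, instead had *Gpat3* at 31.9 FPKM, *Lpin2* at 18.3 and *Lpin3* at 15.9. *Gpam* took 4.58% of the FPKM of the 4 glycerol-phosphate acyltransferases in small intestine and 76.4% in heart.

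*Agpat2*, which adds the second chain (ENSMUSG00000026922, chromosome 2 from 26593057 to 26604417, minus strand), was at 76.7 FPKM in liver, 67.9 in small intestine, 43.0 in white and 31.9 in brown adipose tissue, 13.9 in heart, 1.13 in tibialis anterior muscle and 0.449 in brain. Its exons overlap those of *Egfl7* on the other strand, and the alignment did not use strand, so reads in the overlap cannot be told apart. *Egfl7* was at 62.2 in white and 57.9 in brown adipose tissue and at 6.89 in liver, and so had another order of tissues.

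The last acyltransferases differed in where they were high. *Dgat1* (ENSMUSG00000022555, chromosome 15 from 76502015 to 76511953, minus strand) was at 71.5 FPKM in small intestine, 40.1 in white and 24.5 in brown adipose tissue, and between 1.45 and 3.59 in the other 4 tissues. *Dgat2* (ENSMUSG00000030747, chromosome 7 from 99153658 to 99182719, minus strand) was at 478 in brown and 355 in white adipose tissue, 104 in liver, 67.0 in heart, 41.9 in small intestine, 8.65 in brain and 6.19 in tibialis anterior muscle. *Dgat2* took 37.0% of the summed FPKM of both genes in small intestine and between 70.7% and 97.2% in the other 6 tissues. *Mogat1*, a monoacylglycerol acyltransferase (ENSMUSG00000012187, chromosome 1 from 78510991 to 78538173, plus strand), was at 25.5 in white adipose tissue and at most 0.544 elsewhere, and it was listed at 0 in heart and small intestine. The exons of *Mogat1* overlap *BC035947* on the other strand, which was at 6.11 in white adipose tissue and 2.24 in brain. The intestinal enzyme of that step, *Mogat2*, was at 72.8 in small intestine and 1.22 in white adipose tissue.

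**Figure D1:**
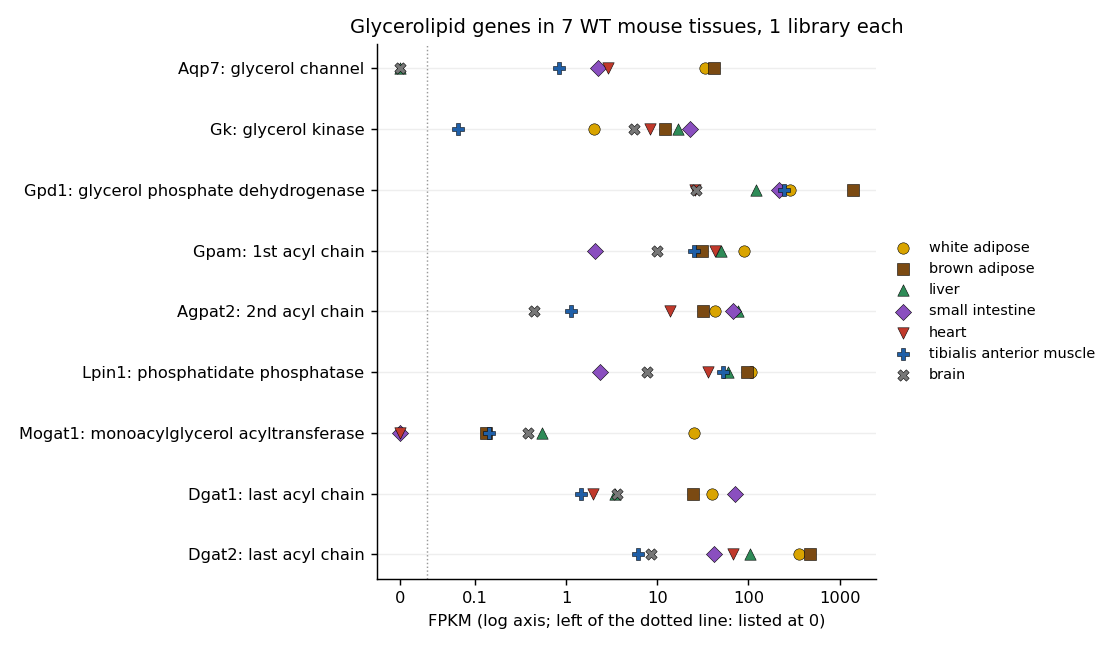
FPKM (log axis) of each of the 9 genes in 7 WT mouse tissues, 1 library per tissue; each symbol is 1 tissue, and values listed at 0 stand left of the dotted line. Brown adipose tissue is far to the right for Gpd1 (1403), white adipose tissue stands alone for Mogat1 (25.5), and small intestine is highest for Gk (23.0) and Dgat1 (71.5).

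In white fat 17.0% of all FPKM belonged to the 10 highest genes, and in brown fat 52.4%, so the order of the depots can depend on scaling. Rescaled to the same sum in every library (TPM), *Aqp7* was 78.8 in white against 59.4 in brown adipose tissue and *Dgat2* 846 against 672, which turned the order of both depots for these genes. The highest tissue of the other 7 genes stayed the same, but white over brown adipose tissue went from 1.09 to 1.85 for *Lpin1*.

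Genes outside the pathway with the most similar profiles were found by Pearson correlation of log2(FPKM + 1) over the 7 tissues among 10386 genes with at least 10 FPKM in 1 tissue. For *Aqp7* these were *Svep1*, *Ano1* and *Lipe*, the hormone-sensitive lipase, at 0.99, 0.98 and 0.98. *Mogat1* was closest to *Sult1e1* and *Oxtr*, both at 0.99, *Agpat2* to *Galm* at 0.99, *Dgat1* to *Zfp592* at 0.98, *Gk* to *Cxadr* at 0.98, and *Dgat2* to *Tspo* at 0.98. For *Lpin1* the closest was *Adhfe1* at 0.97, for *Gpam* *Ivd* at 0.97, and for *Gpd1* *Mtmr14* at 0.96. The 7 points are 1 library per tissue, so many genes reach such values: 223 genes were above 0.9 for *Dgat1* and 4 for *Gpd1*.

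In iWAT of cold-exposed mice, the comparison of MCK-Musclin with WT asked how the pathway stood in the fat depot in which beige cells form. For 8 of the 9 genes the level in MCK-Musclin mice was the lower one, as for 4715 of the 12197 genes tested. For 5 of the 9 (*Aqp7*, *Gk*, *Gpd1*, *Gpam* and *Lpin1*) all 3 MCK-Musclin libraries lay below all 3 WT libraries, where 5.44% of the 12197 genes tested were separated that way. *Dgat1* and *Mogat1* were at nearly the same level in both genotypes, and *Agpat2* rested on 1 WT library. The median log2 fold change of the 9 genes was -0.48 against 0.06 over all genes tested. Bulk tissue was sequenced, so fewer adipocytes and less RNA of these genes per adipocyte cannot be told apart.

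The test was limma on log2(FPKM + 1), with p-values adjusted over all genes by the Benjamini-Hochberg method. None of the 12197 genes reached an adjusted p under 0.05 with limma (the smallest was 0.0912), while 2012, or 16.5%, had an unadjusted p under 0.05. Against the cutoff the study used for iWAT, an unadjusted p under 0.05 and a log2 fold change beyond 0.5, 3 of the 9 genes were lower (*Gk*, *Gpd1* and *Lpin1*) and none higher. The study applied that cutoff to p-values from the Wald test of DESeq2, and here it was applied to limma, so the calls are not those of the study. Over all genes 110 (0.902%) were lower and 615 (5.04%) higher at that cutoff, a split of 187 and 426 under median-ratio scaling and 181 and 426 under quantile normalization. At an unadjusted p under 0.05 alone, 5 of the 9 genes were lower, against 3.44% of all genes. *Agpat2*, *Aqp7*, *Gk*, *Gpam*, *Gpd1* and *Lpin1* are in gene sets that the study chose on these libraries, so their direction in iWAT is not independent evidence.

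Of the 3 genes of glycerol supply, *Gpd1* and *Gk* were lower at the cutoff and *Aqp7* was not at it. *Gpd1* was at 876, 691 and 748 FPKM in WT and at 643, 375 and 412 in MCK-Musclin iWAT. Each MCK-Musclin library was below each WT library, by a narrow margin for MCK-Musclin library 1. On the log2 scale the difference was -0.73 with an SE of 0.21 (limma, Benjamini-Hochberg adjusted p = 0.184), and the mean was 61.8% of WT. *Gk* was at 5.02, 5.34 and 16.1 in WT and at 4.57, 3.08 and 2.71 in MCK-Musclin mice. WT library 3 was far above the other libraries, although the groups did not overlap without it either. For *Gk* the log2 fold change was -0.98 with an SE of 0.40 (limma, Benjamini-Hochberg adjusted p = 0.279), and -0.50 without WT library 3, just under the cutoff. Its unadjusted p no longer came under 0.05 when MCK-Musclin library 2 or library 3 was left out, with log2 fold changes of -0.93 and -0.86. *Aqp7* was at 9.31, 9.83 and 10.4 in WT and at 6.11, 7.76 and 7.32 in MCK-Musclin mice. These values were tight within each genotype and separate between them. Its log2 fold change of -0.43 with an SE of 0.11 (limma, Benjamini-Hochberg adjusted p = 0.165) fell short of the fold cutoff.

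At the next steps *Gpam* was at 44.7, 43.4 and 41.3 FPKM in WT and at 38.0, 29.9 and 25.1 in MCK-Musclin iWAT. The WT values were close together and the MCK-Musclin values were spread below them. The difference was -0.48 on the log2 scale with an SE of 0.15 (limma, Benjamini-Hochberg adjusted p = 0.196). *Lpin1* was at 110.1, 106.8 and 105.8 in WT and at 68.8, 65.4 and 74.1 in MCK-Musclin mice. It had the clearest gap of the 9 genes, with the highest MCK-Musclin library well under the lowest WT library. The log2 fold change of *Lpin1* was -0.63 with an SE of 0.089 (limma, Benjamini-Hochberg adjusted p = 0.143), and omitting single libraries gave -0.67 to -0.58. The mean of *Lpin1* was 64.6% and that of *Gpam* 71.8% of WT.

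*Agpat2* was at 139, 704 and 82.7 FPKM in WT and at 109.6, 62.4 and 72.1 in MCK-Musclin iWAT. WT library 2 was 5.06 times the next highest library and the groups overlapped. Its log2 fold change was -1.34 with an SE of 0.71 (limma, Benjamini-Hochberg adjusted p = 0.393), the largest of the 9 and the least certain, and it was -0.44 without that library. *Egfl7*, whose exons overlap those of *Agpat2*, was at 24.9, 30.3 and 28.7 in WT and at 27.0, 28.8 and 32.1 in MCK-Musclin mice, with no high value in WT library 2.

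Of the enzymes that add the last chain, *Dgat2* was at 325, 287 and 241 FPKM in WT and at 258, 215 and 176 in MCK-Musclin iWAT. MCK-Musclin library 1 lay above the lowest WT library, so the groups overlapped. The log2 fold change was -0.40 with an SE of 0.17 (limma, Benjamini-Hochberg adjusted p = 0.304). *Dgat1* was at 23.5, 30.2 and 31.7 in WT and at 26.003, 34.8 and 29.3 in MCK-Musclin mice, a log2 fold change of 0.08 with an SE of 0.15. *Mogat1* was at 14.3, 14.3 and 17.7 in WT and at 18.4, 14.2 and 11.9 in MCK-Musclin mice, a log2 fold change of -0.07 with an SE of 0.17. Neither pair of groups was separated, and both differences were smaller than their SE.

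**Figure D2:**
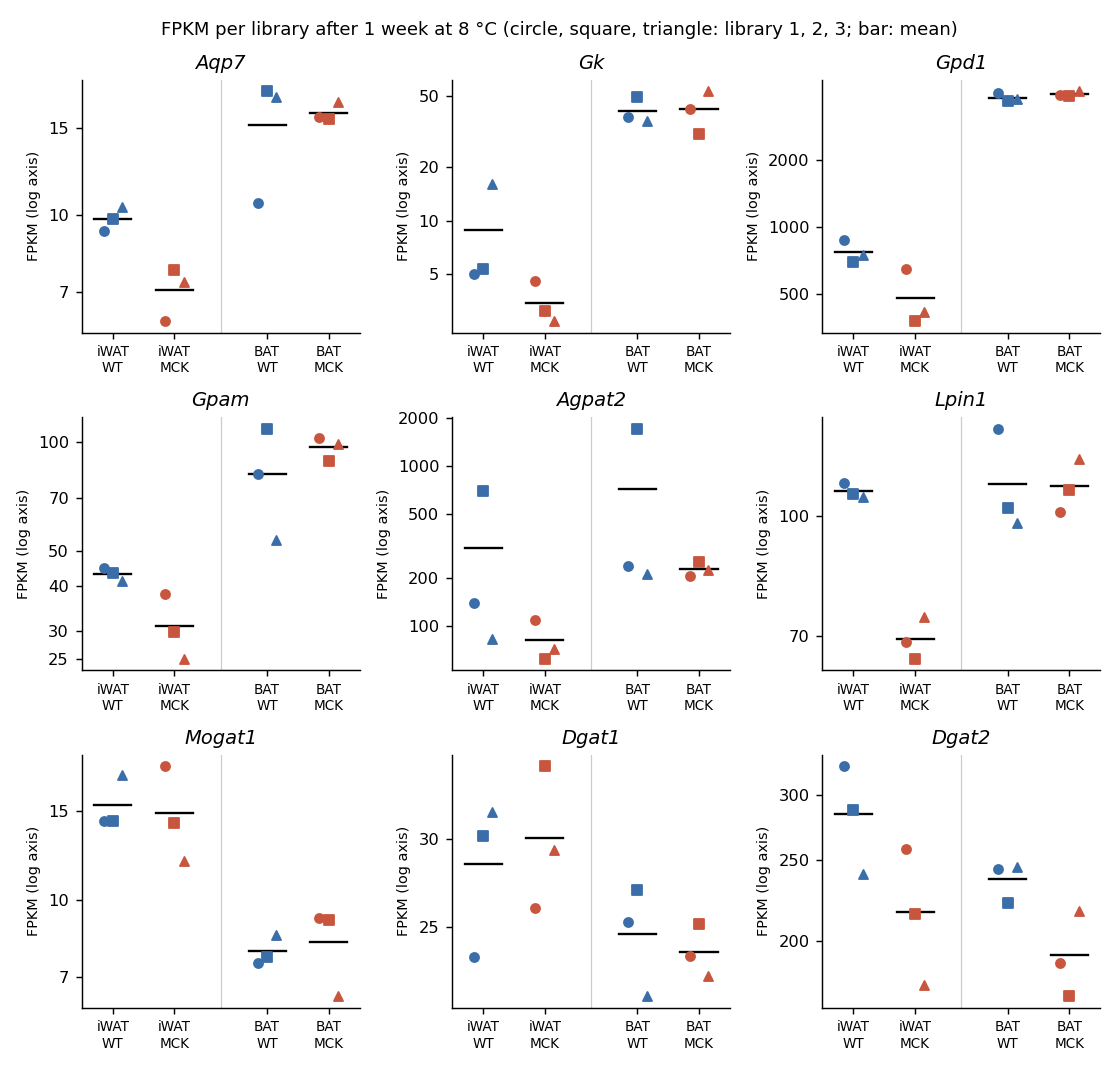
FPKM (log axis, set per gene) of the 9 genes in each cold-exposed library, with WT in blue and MCK-Musclin (MCK) in red, 3 libraries per group; symbols mark the library number and bars the means. In iWAT the red points lie below the blue ones without overlap for Aqp7, Gk, Gpd1, Gpam and Lpin1, in BAT only for Dgat2, and WT library 2 is high for Agpat2 in both depots.

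MCK-Musclin library 1 was the highest of its group for *Gpd1*, *Gk*, *Gpam*, *Agpat2*, *Dgat2* and *Mogat1*, and the lowest for *Aqp7* and *Dgat1*. It also stood out in the markers of beige fat. Of 11 brown and beige fat markers tested in iWAT, all 11 were lower in MCK-Musclin mice and 6 had an unadjusted limma p under 0.05. Over all 12197 genes tested, 4715 were lower, 420 (3.44%) of them at that p. But *Ucp1* was at 173 FPKM in MCK-Musclin library 1 and at 31.6 and 2.91 in the other MCK-Musclin libraries, against 130, 248 and 346 in WT. The summed FPKM of the 11 markers was 589 to 1095 in WT, 660 in MCK-Musclin library 1, and 236 and 128 in the other MCK-Musclin libraries. Without MCK-Musclin library 1, 5 of the 9 genes were at the cutoff in place of 3 (*Dgat2* and *Gpam* joined), while 178 of all genes were lower in place of 110, and the log2 fold change of *Gpd1* was -0.96. Without WT library 3 the count was 5 as well, as *Agpat2*, *Dgat2* and *Gpam* joined and *Gk* dropped out, with 107 of all genes lower. The part of beige cell content in these differences was not tested.

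Markers of other cell types also differed between the groups. All 8 B cell markers (8 with an unadjusted limma p under 0.05) and all 8 T cell markers (7) were higher in MCK-Musclin iWAT, where 13.1% of all genes were higher at that p, with summed FPKM of 153 to 299 in WT against 338 to 444 for B cells and of 107 to 162 against 205 to 235 for T cells. Of 7 macrophage markers 6 were higher (2 with an unadjusted limma p under 0.05), with sums of 560 to 591 in WT and 583 to 821 in MCK-Musclin mice. Of 12 adipocyte markers 11 were lower, against 4715 of all 12197 genes tested. The median log2 fold change of the 12 markers was -0.15, and their sum ranged from 16633 to 17830.5 in WT and from 14902 to 16854 in MCK-Musclin mice. Fast muscle markers summed to 9.01, 575 and 2953 in WT libraries 1, 2 and 3, and to 8.03, 107 and 119 in MCK-Musclin libraries, with *Myh4* and *Ckm* listed at 0 in WT library 1. *Gk*, high in WT library 3, was at 0.065 FPKM in the 1 library of tibialis anterior muscle. When each library was centred on the adipocyte markers, the median of all genes moved from 0.06 to 0.25 and that of the 9 genes to -0.29, none of the 9 reached the cutoff, and over all genes 27 were lower and 1724 higher. Under that centring *Lpin1* had a log2 fold change of -0.43 (limma, Benjamini-Hochberg adjusted p = 0.0736), *Gpd1* one of -0.54 and *Gk* one of -0.79, the last pair with unadjusted p-values above 0.05. The part of lymphocyte, muscle or adipocyte content in the differences was not tested.

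The share that 1 gene took of the summed FPKM of its enzyme family does not depend on how a library is scaled. For *Gk*, which has no family among these genes, the sum was that of *Gk* and *Gpd1*. In iWAT *Lpin1* took 93.2%, 91.9% and 93.3% of the 3 lipins in WT and 90.2%, 89.5% and 90.9% in MCK-Musclin mice, a mean of 92.8% ± 0.776 against 90.2% ± 0.715 (SD, n = 3). *Gpam* took 34.0%, 31.4% and 32.9% of the glycerol-phosphate acyltransferases listed in WT and 30.5%, 30.7% and 26.03% in MCK-Musclin mice. For both, every MCK-Musclin library was below every WT library, with an exact two-sided permutation p of 0.1, which is the smallest that 3 against 3 libraries can give (0.4 adjusted over the 10 shares tested). *Dgat2* was 90.7% ± 2.45 of both diacylglycerol acyltransferases in WT and 87.6% ± 2.84 in MCK-Musclin iWAT (SD, n = 3, exact permutation p = 0.3). The shares of *Agpat2* and *Gk* overlapped between the groups as well. In BAT none of the 5 shares was separated.

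**Figure D3:**
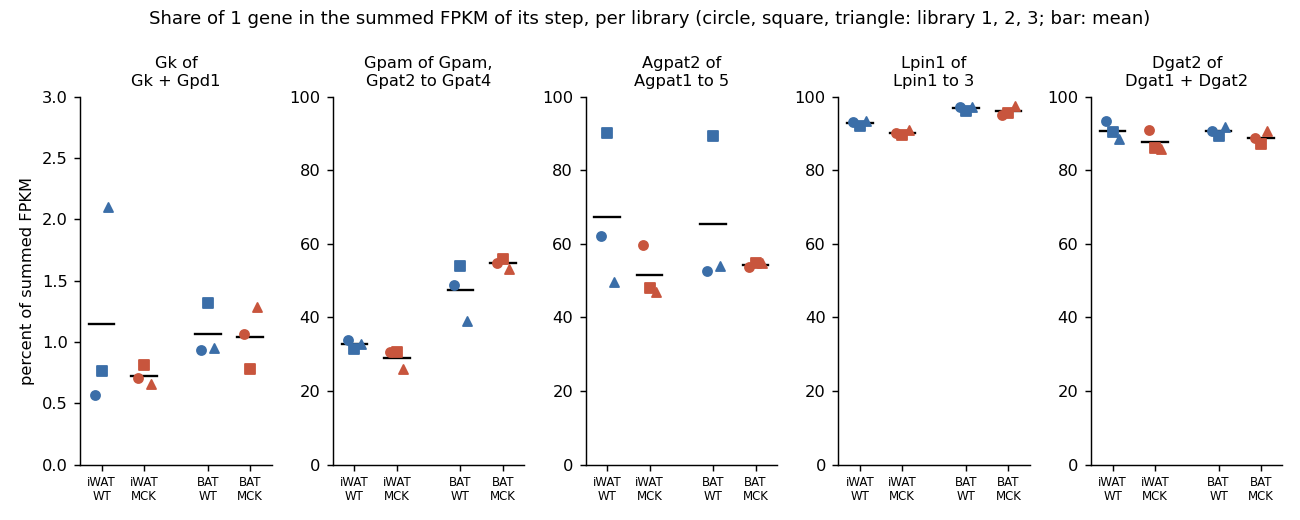
Percent of the summed FPKM taken by 1 gene, per library, in cold iWAT and BAT of WT (blue) and MCK-Musclin (MCK, red) mice. The sum is over an enzyme family, or over Gk and Gpd1 for Gk. Each group has 3 libraries with the mean as a bar, and the first axis ends at 3% and the others at 100%. In iWAT the MCK-Musclin shares of Gpam (mean 29.1%) and Lpin1 (90.2%) lie below the WT shares (32.7% and 92.8%), and WT library 2 is high for Agpat2 in both depots.

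Promoters are shown for the 4 genes with an entry among the 5 that were separated in iWAT. Windows of 250 bases upstream of the annotated start came from RefSeq on GRCm38.p6, and 6 of the 9 genes had 1 (8 windows). They are printed 5′ to 3′ on the strand of the gene, with capitals marking AGGTCA, the half-site bound by many nuclear receptors, or CACGTG, the E-box, on either strand.
*Lpin1*, chr12:16610967-16611216, minus strand: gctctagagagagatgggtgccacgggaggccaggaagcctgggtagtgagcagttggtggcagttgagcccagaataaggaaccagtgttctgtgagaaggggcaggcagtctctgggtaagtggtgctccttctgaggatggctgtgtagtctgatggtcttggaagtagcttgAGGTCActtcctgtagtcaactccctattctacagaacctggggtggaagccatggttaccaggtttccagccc
*Aqp7*, chr4:41048137-41048386, minus strand: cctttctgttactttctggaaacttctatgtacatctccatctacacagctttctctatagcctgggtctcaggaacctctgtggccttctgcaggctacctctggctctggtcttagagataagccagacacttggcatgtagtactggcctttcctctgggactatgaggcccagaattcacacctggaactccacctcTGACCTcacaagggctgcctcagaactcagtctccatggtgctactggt
*Gpam*, chr19:55099478-55099727, minus strand: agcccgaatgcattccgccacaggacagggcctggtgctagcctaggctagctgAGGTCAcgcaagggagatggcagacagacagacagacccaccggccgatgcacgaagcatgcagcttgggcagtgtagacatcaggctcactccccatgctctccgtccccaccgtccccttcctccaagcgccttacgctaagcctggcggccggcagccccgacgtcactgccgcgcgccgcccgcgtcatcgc
*Gk*, chrX:85776820-85777069, minus strand: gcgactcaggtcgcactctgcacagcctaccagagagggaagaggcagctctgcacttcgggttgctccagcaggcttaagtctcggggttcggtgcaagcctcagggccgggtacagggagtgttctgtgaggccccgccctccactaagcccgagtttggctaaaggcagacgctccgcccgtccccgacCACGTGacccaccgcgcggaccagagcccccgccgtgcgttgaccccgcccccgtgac

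AGGTCA was found in 4 of the 8 windows, which belong to 3 of 6 genes (*Aqp7*, *Lpin1* and *Gpam*), and 14.0% of all 32851 windows hold it on either strand. Counted from the start, the match began at -74 in *Lpin1*, at -49 in *Aqp7*, where it lies on the other strand as TGACCT, and at -196 in the *Gpam* window shown, which belongs to a start inside the gene. The other *Gpam* window, upstream of the first exon, has none. Another *Aqp7* window overlaps the one shown, holds the same match and has a further match at -101. The *Gk* window has CACGTG at -58, a motif in 6.02% of all windows, and GGGGCGGGG, the GC box, on the other strand, as 10.4% of windows do. Neither the direct repeat of AGGTCA spaced by 1 base nor the cyclic AMP response element TGACGTCA was found in the 8 windows. These matches are letters in a sequence, and binding was not measured.

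Other genes of the pathway in iWAT were on both sides of WT, those of glycerol supply included. Of 26 further genes listed for it, 18 were in the iWAT table, 12 lower and 6 higher, with a median log2 fold change of -0.14. An unadjusted limma p under 0.05 was reached by 3 lower genes (*Gpd2*, *Agpat1* and *Lpin2*) and 3 higher ones (*Gpd1l*, *Agpat4* and *Aqp3*), where 16.5% of all genes reached it in either direction. *Gpd2*, the mitochondrial glycerol phosphate dehydrogenase, was at 35.5, 28.7 and 25.2 FPKM in WT and at 23.6, 13.6 and 10.4 in MCK-Musclin mice, every MCK-Musclin library below WT. Its log2 fold change was -0.93 with an SE of 0.28 (limma, Benjamini-Hochberg adjusted p = 0.186). *Gpd1l*, a relative of *Gpd1*, was at 3.67, 2.99 and 3.42 in WT and at 4.11, 7.17 and 7.91 in MCK-Musclin mice, every MCK-Musclin library above WT. For *Gpd1l* the log2 fold change was 0.73 with an SE of 0.21 (limma, Benjamini-Hochberg adjusted p = 0.184). The paralogs of the listed genes were thus not all on the same side: *Lpin2* was at -0.34 and *Lpin3* at 0.31, and *Agpat1* at -0.44 and *Agpat4* at 0.37 on the log2 scale. *Pck1* was at 192, 904 and 414 in WT and at 633, 694 and 492 in MCK-Musclin mice, a spread within WT wider than the difference.

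**Figure D4:**
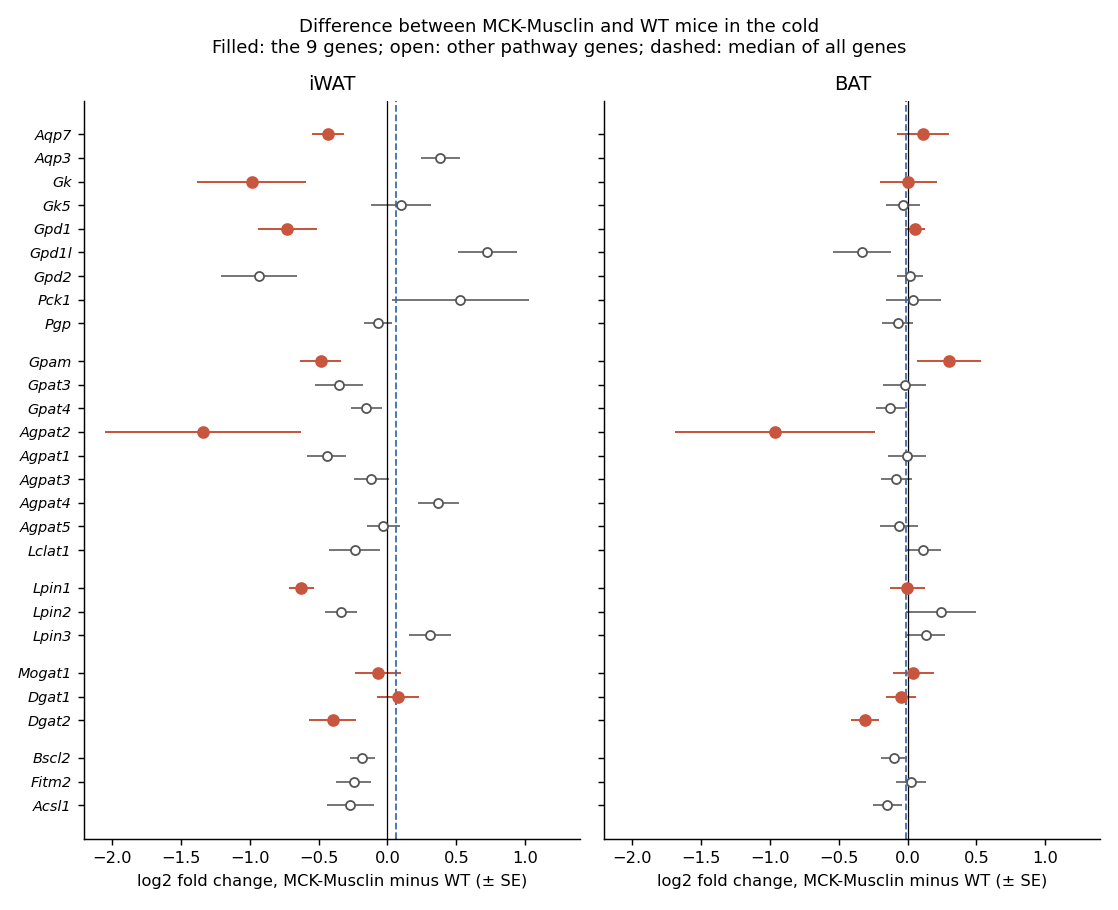
Log2 fold change (MCK-Musclin minus WT, on log2(FPKM + 1), bars ± SE) of the 9 genes (filled) and other pathway genes (open) in cold iWAT and BAT, ordered by step of the pathway; a gene with no point was not listed or was below the filter, and the dashed line is the median of all genes tested. In iWAT Lpin1 (-0.63) has a short bar and Agpat2 (-1.34) a long one, and in BAT most points lie near 0.

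In BAT of cold-exposed mice the 9 genes lay on both sides of WT: 4 were lower and 5 higher in MCK-Musclin mice, with a median log2 fold change of 0.01 against -0.01 over the 10893 genes tested. *Ostn* was the only gene with a limma Benjamini-Hochberg adjusted p under 0.05, 0.00918% of those tested. At the cutoff the study used for BAT, an unadjusted p (here of limma) under 0.05 and a log2 fold change beyond 0.3, 1 of the 9 genes passed (*Dgat2*), against 4% of all genes. Whether the genotypes differed more in iWAT than in BAT was not tested, since the tables were made separately.

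*Dgat2* in BAT was at 244, 222 and 245 FPKM in WT and at 188, 171 and 217 in MCK-Musclin mice. Every MCK-Musclin library was below every WT library, as for 5.63% of the genes tested in BAT. The log2 fold change was -0.31 with an SE of 0.10 (limma, Benjamini-Hochberg adjusted p = 0.968), so it sat at the cutoff, and omitting single libraries gave -0.40 to -0.23. It was -0.29 without WT library 1, -0.28 without WT library 3, -0.30 when MCK-Musclin library 1 was left out and -0.23 when library 2 was, and with each of these omissions *Dgat2* was no longer at the cutoff. *Dgat1* in BAT was at 25.3, 27.0 and 21.7 in WT and at 23.6, 25.1 and 22.6 in MCK-Musclin mice, with overlap.

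*Gpd1* in BAT was at 4054, 3714 and 3791 FPKM in WT and at 3968, 3909.9 and 4114 in MCK-Musclin mice. The groups overlapped and the log2 fold change was 0.05 with an SE of 0.071. *Lpin1* was at 129, 102 and 97.8 in WT and at 101.2, 108 and 118 in MCK-Musclin BAT, and *Gk* at 38.3, 49.5 and 36.4 against 42.6, 30.7 and 53.5. For both the difference was far inside the spread of each group. *Aqp7* was at 10.6, 17.8 and 17.3 in WT and at 15.8, 15.7 and 16.9 in MCK-Musclin mice, with WT library 1 the low one. *Gpam* was at 81.6, 108.6 and 53.5 in WT and at 102, 88.2 and 98.6 in MCK-Musclin mice, a log2 fold change of 0.30 with an SE of 0.23. *Mogat1* was at 7.49, 7.68 and 8.52 in WT and at 9.18, 9.12 and 6.42 in MCK-Musclin mice. None of these groups was separated. Of the other pathway genes, 16 passed the filter in BAT and none had an unadjusted limma p under 0.05 (0 with an adjusted p under 0.05), against 4.89% of all genes.

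*Agpat2* repeated its pattern in BAT. It was at 238, 1721 and 211 FPKM in WT and at 206, 251 and 225 in MCK-Musclin mice. WT library 2 was 6.85 times the next highest, and the log2 fold change was -0.96 with an SE of 0.72 (limma, Benjamini-Hochberg adjusted p = 0.968) with it and 0.02 without it. *Egfl7* was at 15.9, 23.9 and 24.8 in WT BAT and at 19.2, 23.0 and 18.6 in MCK-Musclin BAT. The labels do not say whether libraries of BAT and iWAT with the same number came from the same mouse.

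Fast muscle markers differed between the genotypes in BAT: all 10 were higher in MCK-Musclin mice and 9 had an unadjusted limma p under 0.05. Over all 10893 genes tested in BAT, 5200 were higher, 238 of them at that p. The summed FPKM of the 10 markers was 378 to 576 in WT and 618 to 1294 in MCK-Musclin libraries. None of the 10 was at 0 in any BAT library. In the 1 library of tibialis anterior muscle *Dgat2* was at 6.19 FPKM and *Gpd1* at 245. The part of muscle content in the values of BAT was not tested.

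The depots were set side by side in cold WT mice. These values come from tables made separately and carry no test. *Gpd1* was at 3853 ± 179 FPKM in BAT and 772 ± 94.5 in iWAT, *Gk* at 41.4 ± 7.10 and 8.81 ± 6.29, and *Gpd2* at 154 ± 10.6 and 29.8 ± 5.24 (SD, n = 3 each). For the first acyl chain, *Gpat3* was at 2.52 ± 0.615 in BAT and 41.2 ± 4.52 in iWAT, while *Gpam* was at 81.2 ± 27.6 and 43.1 ± 1.72 and *Gpat4* at 84.5 ± 4.54 and 47.5 ± 4.74. *Lpin1* was at 109.8 ± 17.1 in BAT and 107.5 ± 2.25 in iWAT, *Dgat1* at 24.6 ± 2.70 and 28.5 ± 4.36, and *Dgat2* at 237 ± 12.8 and 284 ± 42.01. *Mogat1* was at 7.89 ± 0.547 in BAT and 15.4 ± 1.96 in iWAT, whereas the single libraries of the 7 tissues had it at 0.134 in brown and 25.5 in white adipose tissue. The iWAT table lists only 13756 genes, all 9 members among them, and its libraries have the smaller FPKM sums, so the ratio of the depots depends on scaling. Rescaled to equal sums over all genes of each table, *Lpin1* in BAT was 0.524 times its level in iWAT, *Dgat1* 0.444 times, *Dgat2* 0.427 times, *Gpam* 0.967 times and *Gpat4* 0.912 times. Rescaled over the genes listed in both tables, the same ratios were 1.41, 1.20, 1.16, 2.61 and 2.46, so no order of the depots can be given for these 5 genes. *Gpd1*, *Gk* and *Gpd2* were higher in BAT on all 3 scales (2.56, 2.41 and 2.65 times iWAT at the least), and *Gpat3* and *Mogat1* were lower (0.0850 and 0.709 times at the most).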

How the data were processed

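RNA was isolated from 7 tissues of WT mice and from BAT and iWAT of WT and MCK-Musclin mice, and libraries were made from poly(A)-selected RNA (19 libraries in all). The authors filtered reads with fastp and Bowtie2, aligned them to mm10 (GRCm38) with HISAT2 2.1.0 with no strand setting, and computed the deposited FPKM of every gene and library with StringTie. The submitters' notes also name Cuffdiff. The deposited iWAT table further holds the authors' own comparison (log2 fold changes, p-values, FDR and group means), which was not used. A gene repeated with the same values (287 lines, for BAT as for the 7 tissues) was used once. FPKM depend on the other genes of a library, and a few abundant genes lower all others. The number of reads was not part of the values used, so depth is unknown in absolute terms. Relative depth was sought from the steps between low FPKM values, as the most frequent ratio within a narrow preset range around equal depth. The ratios found were 0.89 to 1.11 to WT library 1 in BAT and 0.839 to 1.05 to tibialis anterior muscle in the tissues. The most frequent ratio held at most 2.37% of the low values in BAT and 1.77% in the tissues. Since the range was preset, these ratios do not show that depth was similar. In iWAT too few low values were listed for this.

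Each adipose table was fitted by itself in limma 3.58.1 (R 4.3.3; lmFit, then eBayes with trend), after adding 1 to the FPKM and taking log2. Genes had to average 1 FPKM or more over the 6 libraries, which all 9 genes did in both depots. Because of the added 1, changes of genes with low FPKM come out too small. Shares were compared with exact two-sided permutation tests. Python 3.11.15, numpy 2.4.6, pandas 2.3.3, scipy 1.17.1 and matplotlib 3.10.9 were used. Tested on simulated data, the limma step called 73 of 100 genes changed by a log2 of 1 and 91 of 100 changed by 2 among 12178 genes in iWAT (4.09% false calls), and 80 and 97 of 100 among 10898 genes in BAT (7.33% false calls). The design calls the libraries of a group biological replicates.

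The members and lists were chosen with earlier results of these data known. Genes could be named if they were among the 9, among 26 other genes of the pathway, among 3 neighbours per gene over the 7 tissues, *Ostn*, or in the marker lists (adipocyte, brown and beige fat, fast muscle, heart, hepatocyte, enterocyte, neuron, B cell, T cell, macrophage); *Egfl7*, *Gm16537*, *BC035947* and *Nr4a1* were added after their values were seen. Positions and exon overlaps came from GENCODE M21 and promoters from RefSeq (GRCm38.p6). Alternatives were other pseudocounts, filters, scalings and moderation, a replicate block, and leaving out each library. Samples of the study outside these tables were not analysed here.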

Additional observations from a re-analysis of the deposited data

How the results depend on the processing

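The count of the 9 genes lower in iWAT at the cutoff (3) was the same with a pseudocount of 0.1, with no filter, with a filter at 5 FPKM, with robust estimation and without a trend. It was 5 as TPM, 5 with median-ratio scaling, 5 with quantile normalization and 5 with no cutoff on the fold change (*Aqp7* and *Gpam* joined), and 0 with libraries centred on adipocyte markers. Over all genes, 110 (0.902%) were lower, 201 (1.65%) as TPM, 187 (1.53%) with median-ratio scaling, 181 (1.48%) with quantile normalization and 27 (0.221%) with centring. Leaving out each library gave 2 to 5 of the 9 genes and 92 to 213 of all genes, the highest without WT library 1. In BAT the count (1) was 0 as TPM, 0 with quantile normalization and 0 with centring, and 0 to 2 without single libraries, *Gpam* joining without WT library 2. The causes were not tested. No adjusted p of the 9 genes came under 0.05 with any of these alternatives, and for *Lpin1* in iWAT it ranged from 0.0585 to 0.372. Over all genes in iWAT, 0 had an adjusted p under 0.05, but 86 without WT library 1 and 695 with centring.

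Some directions turned. As TPM the highest over the next tissue was 1.33 for *Aqp7* and 1.26 for *Dgat2*, white over brown adipose tissue. WT BAT over WT iWAT turned to 0.794 for *Aqp7*, 0.967 for *Gpam*, 0.524 for *Lpin1* and 0.912 for *Gpat4* as TPM, and to 1.20 for *Dgat1* and 1.16 for *Dgat2* as TPM over the genes in both tables, alternatives chosen after seeing the data. In iWAT *Dgat1* was at -0.0018 with median-ratio scaling and *Mogat1* at 0.12 with centring. In BAT *Lpin1* was at 0.026, 0.0041, 0.016 and 0.11 and *Agpat1* at 0.023, 0.0016, 0.0033 and 0.11 as TPM, with median-ratio scaling, quantile normalization and centring, and centring gave *Dgat1* 0.065 and *Gk5* 0.078. Without single libraries, log2 fold changes in iWAT ranged from -0.051 to 0.17 for *Dgat1*, -0.22 to 0.070 for *Mogat1*, -0.14 to 0.22 for *Gk5* and -0.028 to 1.09 for *Pck1* (below 0 without WT library 1), and in BAT from -0.18 to 0.21 for *Gk*, -0.12 to 0.23 for *Aqp7*, -0.078 to 0.12 for *Lpin1*, -1.49 to 0.017 for *Agpat2* (above 0 without WT library 2), -0.13 to 0.020 for *Dgat1*, -0.036 to 0.19 for *Mogat1*, -0.040 to 0.074 for *Gpd2*, -0.080 to 0.00013 for *Gk5*, -0.12 to 0.090 for *Agpat1* and -0.18 to 0.23 for *Pck1*.

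The main fit did not pair samples by replicate number. The correlation of deviations of same-numbered WT and MCK-Musclin libraries was 0.235, 0.061 and 0.107 in iWAT and -0.095, -0.005 and 0.009 in BAT. Differently numbered libraries ranged from -0.180 to 0.070 in iWAT and from -0.084 to 0.079 in BAT. The same-numbered values were thus all above 0 in iWAT only, and whether the numbers pair the samples was not tested. With the replicate block, 2 of the 9 genes were lower in iWAT (*Gk* had a limma p of 0.0504) and 1 differed in BAT, and over all genes the counts at the cutoff were 154 lower and 620 higher in iWAT.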

Other observations

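*Agpat2* was high only in WT library 2, and in the tables of both depots. The 13750 genes listed for BAT and iWAT were searched for a value above 2 times the next highest, in same-numbered libraries of both depots. A small constant was added to the next highest value, and genes of low FPKM can be missed by this search. It returned *Agpat2* and *Nr4a1*, an immediate early gene, for WT library 2, and no gene at the other 5 library numbers. *Nr4a1* was at 13.2 FPKM in iWAT WT library 2 against at most 3.89 in the other iWAT libraries, and at 47.1 in BAT WT library 2 against at most 14.7. These genes were picked out after their values were seen, and *Nr4a1* lies outside the naming rule. In the 7 tissues *Agpat2* was at 76.7 FPKM at most, in liver. All 12 cold libraries of BAT and iWAT, from 62.4 to 1721, were above the white (43.0) and brown (31.9) adipose libraries of the 7 tissues. These came from another table, with no treatment named. *Aqp7* went the other way, with all 12 cold libraries, from 6.11 to 17.8, below the white (33.1) and brown (42.3) adipose libraries. The reason for these differences was not tested.

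Further genes of the pathway had their own tissues. *Fitm1*, a lipid droplet protein of muscle, was at 30.9 FPKM in tibialis anterior muscle and 13.9 in heart, and was listed at 0 in white adipose tissue. *Gpat3* was at 55.6 in white and 8.13 in brown adipose tissue. *Lpin2* was highest in liver at 44.3, *Agpat4* in brain at 15.3 and *Lclat1* in heart at 29.1. *Awat1* and *Gykl1* were listed at 0 in all 7 tissues.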
